A study of Homo sapiens with 6 samples.

Results

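Genes of mitosis and the spindle checkpoint were examined in RNA-seq libraries of HCT116 cells, a human colon cancer line, that carried either a control lentivirus or a lentivirus for CYGB, which encodes the haem protein cytoglobin. The set holds 42 genes, taken by their symbol from the table of counts per transcript, in which 40173 genes have at least 1 transcript. All transcripts of a gene were summed. There were 3 libraries of MOCK cells, which received the control virus, and 3 libraries of CYGB-overexpressing cells, which received a virus with the CYGB coding region joined to a FLAG tag. Both groups were selected with puromycin to give stable lines, were labelled as wild type in genotype and were grown in the same medium. The design text calls the libraries biological replicates, and the sources used here do not state whether the cells came from more than 1 transduction. A stable virus-driven line of 1 cancer cell line was thus compared with its virus control, without untransduced cells.

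During mitosis, CDK1 bound to cyclin A or cyclin B starts the condensation of chromosomes and the assembly of the spindle. Kinetochores tie chromosomes to spindle fibres, and those without a fibre keep the spindle checkpoint on, which blocks CDC20, the activator of the anaphase promoting complex (APC/C). When the block is lifted, APC/C marks securin and cyclin B for destruction, separase cuts the cohesin rings, and the cell then divides. The mRNAs of these proteins rise together in G2 and M phase and are low in resting cells, so their level in a bulk culture follows the share of cycling cells. In bulk RNA, fewer cells in mitosis and less RNA per mitotic cell cannot be told apart.

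Promoters of such genes often hold a CHR element (cell cycle genes homology region, with the letters TTTGAA and a variant in which the third base is C), which the DREAM complex and its MYBL2-containing counterpart contact, together with CCAAT boxes, which NF-Y binds. RefSeq promoter windows of GRCh38.p14, 250 bases before to 50 bases from each start, were found for 36 of the 42 genes (47 windows, since some genes have more than 1 start). Both strands were searched, and neither motif contains the other. A CHR was present in 31 of the 47 windows (66.0%), against 16.4% of all 35116 windows and 11.9% of the 16971 windows of genes tested here. CCAAT was present in 74.5% of the windows of these genes, 34.6% of all windows and 34.3% of those of tested genes. Both motifs stood in 55.3% of the windows of these genes and in 6.38% of all windows. By contrast, TATAAA was found in 2.13% of their windows (1 of 47), in 11.5% of all windows and in 6.82% of those of tested genes. No CHR and no CCAAT was found in the windows of CENPE, KIF2C and MYBL2. Matches are a description of the letters and not of binding. The 120 bases before the RefSeq start are shown for ESPL1 (separase, chr12:53268179-53268298, plus strand) and KIF11 (a spindle motor, chr10:92593010-92593129, plus strand), the genes with both motifs in that stretch and no annotated UTR in it. Capitals mark the CHR, which reads as TTCAAA where it lies on the other strand. They also mark the CCAAT box, which in both stretches lies on the other strand.
ESPL1: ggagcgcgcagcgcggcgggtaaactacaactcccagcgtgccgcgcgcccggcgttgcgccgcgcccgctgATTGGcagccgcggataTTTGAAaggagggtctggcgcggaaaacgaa
KIF11: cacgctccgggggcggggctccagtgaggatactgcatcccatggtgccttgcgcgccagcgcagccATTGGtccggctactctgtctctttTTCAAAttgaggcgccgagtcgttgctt
For 4 of the genes whose values are described below, 30 bases around the CHR that begins nearest before the RefSeq start are given, to set their elements side by side. Capitals mark that CHR alone. In NDC80 it begins 3 bases before the start and runs across it. A further match directly after it, in lower case, lies past the start. The stretches lie at chr10:60778453-60778482 (CDK1), chr15:59105105-59105134 (CCNB2), chr11:62123989-62124018 (INCENP) and chr18:2571542-2571571 (NDC80), all on the plus strand. Each lies inside the annotated span of its gene, which begins before the RefSeq start used. A CHR before the start was also found for ANLN and TOP2A and is not shown.
CDK1: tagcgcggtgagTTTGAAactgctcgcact
CCNB2: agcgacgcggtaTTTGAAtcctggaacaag
INCENP: tgagccttcagtTTTGAAaatcatagtttt
NDC80: ccggcggagaatTTCAAAttcgaacggctt

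Library totals ranged from 58138393 to 66035266 counts, and transcripts without a gene, which the table gives no position, held 18.6 to 19.5% of them. CYGB was counted 10, 28 and 34 times in MOCK libraries and 34935, 27681 and 32333 times in CYGB libraries, which follows the labels. Of the epithelial markers, EPCAM, CDH1, KRT8, KRT18 and KRT19 had from 5473 to 101668 counts in every library, and VIL1 had 12 to 40 (CDX1 was not analysed here). Among markers of other cells, PTPRC, CD3E, PECAM1 and ALB had at most 12 counts, VWF and GFAP at most 102, and COL1A1 had 2117 to 2823 counts, with similar values in both groups. All 42 mitosis genes passed the filter on low counts. Of the counts assigned to a gene, they together held 0.590 to 0.614% in MOCK libraries and 0.607 to 0.616% in CYGB libraries.

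The mitosis genes as a group were expressed at nearly the same level in CYGB-overexpressing cells and in MOCK cells. Their summed level was 6026 ± 132 CPM in MOCK and 6098 ± 86.6 CPM for CYGB (SD, n = 3), where CPM are counts per 1e+06 counts of the library after TMM scaling. Without INCENP, which differed between libraries of the same group, the sums were 5970.5 ± 85.0 and 5990 ± 31.85 CPM. Of the 42 genes, 16 lay above and 26 below the MOCK level in edgeR's fit. The median log2 fold change was -0.0177, against -0.007 over the 19987 genes tested.
The study's methods call a gene at an unadjusted p-value of 0.01 or less and an expression ratio of 2 or more, or 0.5 or less. With edgeR's quasi-likelihood test, 0 of the 42 genes passed this limit, beside 0.565% of all genes tested (113 genes). An adjusted p under 0.05 was reached by 0 of the 42 genes and by 0.055% of all genes. An unadjusted p under 0.05 was reached by 2 of the 42 genes, CDK1 and PTTG1, both lower in CYGB, beside 4.54% of all genes. DESeq2 likewise placed 0 genes past the limit and 0 at an adjusted p under 0.05, with 3 genes at an unadjusted p under 0.05.
These counts depended on single libraries. Without MOCK replicate 3, CDK1 passed the limit of the methods, and without CYGB replicate 2, NDC80 passed it. The number with an unadjusted p under 0.05 was 4 without MOCK replicate 3, 3 without CYGB replicate 2, 1 without MOCK replicate 2 (INCENP, unadjusted p = 0.0123), and 0 without MOCK replicate 1, CYGB replicate 1 or CYGB replicate 3.

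**Figure D1:**
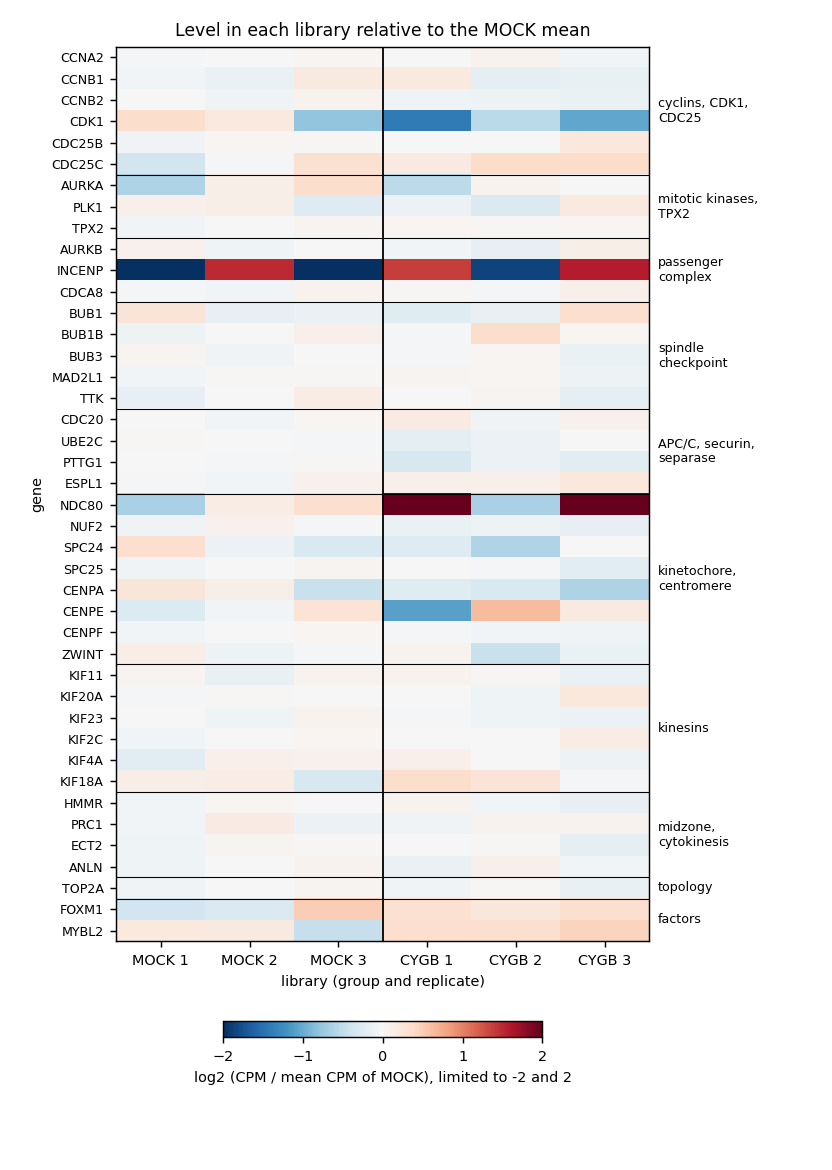
Heat map of the 42 genes (rows, by role) in the 6 libraries (columns), as the log2 of the CPM over the mean CPM of MOCK. Most rows are pale in all libraries, while INCENP, NDC80, CDK1 and CENPE change colour between libraries of the same group.

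A p above the limit does not show that a gene was equal in both groups, so the 95% intervals of the fold changes were examined. The interval lay within 2-fold in either direction for 38 of the 42 genes (90.5%), and within 1.5-fold for 31 of them (73.8%). Over all genes tested these shares were 56% and 34%. Among the 11903 tested genes whose mean CPM fell within the range of the mitosis genes they were 76.6% and 53.7%. That range is wide, from SPC24 (3.86 CPM in MOCK) to ANLN (457 CPM in MOCK), and genes were not matched by abundance within it. Whether the mitosis genes were steadier than equally abundant genes was not tested. The 4 genes whose interval went past 2-fold were CDK1, INCENP, NDC80 and CENPE. Replicates lay close together, with a median within-group SD of 0.111 on the log2 scale for the mitosis genes, 0.195 for genes in the same range of CPM and 0.3015 for all genes. The highest of the 6 libraries was less than 1.5-fold above the lowest for 31 genes, with a median of 1.22-fold over the 42, and was more than 2-fold above it for 4.
The groups did not overlap in CPM for 5 genes. When scaled by transcript length (TPM, described below), PTTG1 and MYBL2 stayed apart, but the groups of CCNB2, ESPL1 and NUF2 overlapped. ESPL1 and MYBL2 were higher in all CYGB libraries, beside 5.72% of all genes in that direction. CCNB2, PTTG1 and NUF2 were lower in all of them, beside 5.31% of all genes. With the most abundant transcript in place of the summed gene, 1 of the 42 did not overlap. With a library left out, and so fewer values to separate, the number was 11 without CYGB replicate 1, 10 without MOCK replicate 3, 7 without MOCK replicate 2, and 8 without MOCK replicate 1, CYGB replicate 2 or CYGB replicate 3.

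**Figure D2:**
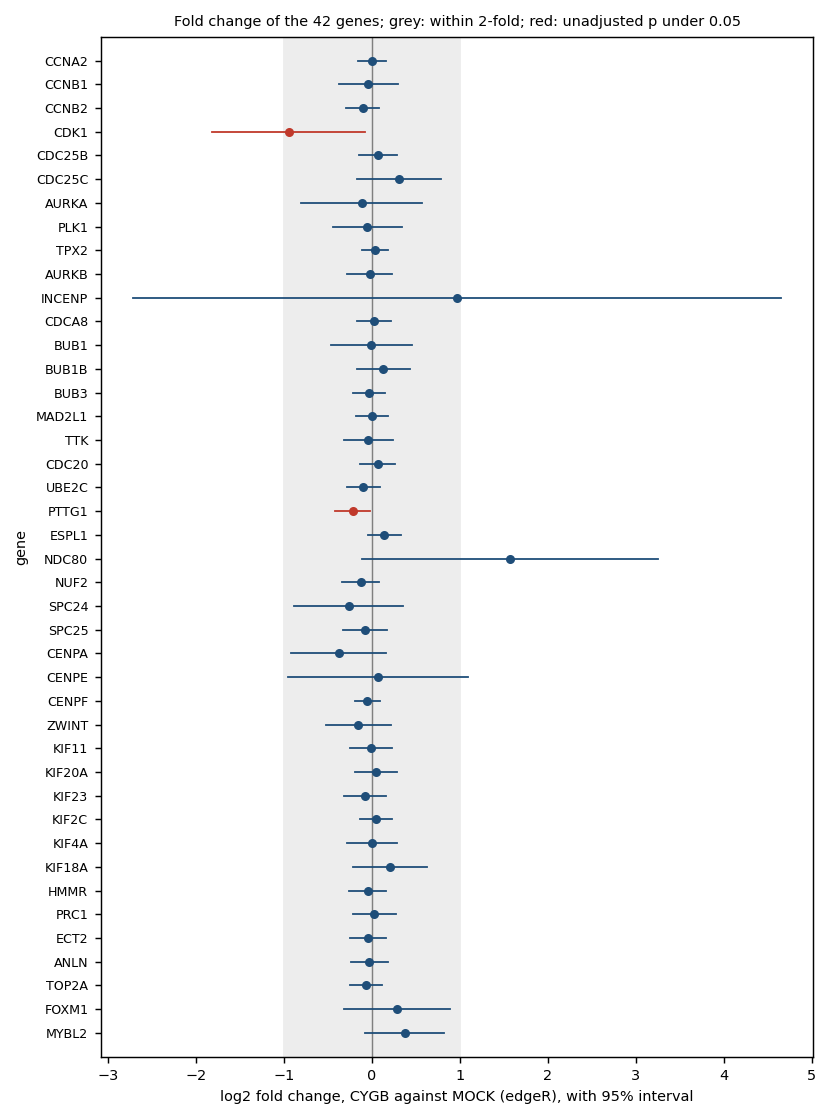
Log2 fold change of each gene, CYGB against MOCK, from edgeR with its 95% interval. Of the 42 intervals, 38 stay inside the grey band of 2-fold, and the genes drawn in red, CDK1 and PTTG1, have an unadjusted p under 0.05.

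Among the cyclins, CDK1 and its phosphatases (6 genes), the summed level was 728 ± 17.9 CPM in MOCK and 708 ± 9.20 in CYGB (SD, n = 3). CDK1, the kinase that drives entry into mitosis (ENSG00000170312, chromosome 10 of GRCh38 from 60778331 to 60794852, plus strand), was measured at 56.2, 50.5 and 25.4 CPM in MOCK replicates 1 to 3 and at 16.6, 30.3 and 21.4 CPM in CYGB replicates 1 to 3. MOCK replicate 3 lay below CYGB replicate 2, so the groups overlapped.
The ratio of CYGB to MOCK was 0.518 (95% interval on the log2 scale -1.82 to -0.07). Its log2 fold change was -0.95 (standard error 0.36, edgeR's quasi-likelihood test, unadjusted p = 0.0377, Benjamini-Hochberg adjusted p = 0.963). The adjusted p stayed between 0.56 and 1 over the 13 alternative settings. Without MOCK replicate 3 it was -1.23 (unadjusted p = 0.00565, adjusted p = 0.607). Leaving out the other libraries in turn gave -1.20 to -0.73. The unadjusted p of the same test was 0.0258 without CYGB replicate 2. It was 0.0977 to 0.114 without MOCK replicate 1 or 2 or CYGB replicate 1 or 3. With the most abundant transcript in place of the summed gene, the log2 fold change was -0.33 (unadjusted p = 0.225 by the same test).
The cyclins that activate this kinase showed no such spread. CCNB1, which encodes cyclin B1 and was the most abundant of them per length, had 163, 155 and 191 CPM in MOCK and 193, 147 and 154 CPM in CYGB, with both groups covering the same range. CCNB2, cyclin B2 (ENSG00000157456, chromosome 15 from 59105078 to 59125045), had 99.5, 95.8 and 106 CPM in MOCK and 95.1, 93.2 and 91.3 CPM in CYGB. Each CYGB library lay below each MOCK library, by a narrow margin, and the ratio was 0.928 (95% interval 0.816 to 1.06).
CCNA2, cyclin A2, had a ratio of 1.00 (0.892 to 1.12). The phosphatases that switch CDK1 on, CDC25B and CDC25C, had ratios of 1.05 (0.905 to 1.22) and 1.24 (0.888 to 1.72). In TPM (counts per length of transcript, with each library scaled to the same sum, computed here), CDK1 stood at 47.3 ± 17.0 in MOCK and 25.6 ± 7.95 in CYGB, and CCNB1 at 173 ± 25.7 and 160 ± 25.3 (SD, n = 3). CDK1, summed over its coding and retained intron transcripts, was thus below CCNB1 in every library. CCNB2 stood at 123 ± 7.54 TPM in MOCK and 124 ± 5.98 TPM in CYGB (SD, n = 3), and its groups overlapped, unlike in CPM. This sum includes a short retained intron transcript, ENST00000561077 (687 bases), in which each count weighs more. It was counted 1, 1 and 1 times in MOCK and 378, 3 and 388 times in CYGB. The coding transcript ENST00000288207 (1556 bases) had MOCK counts of 4539, 4689 and 5209 and CYGB counts of 4255, 4594 and 4169. The TPM of CCNB2 is thus not that of its coding transcript alone.

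**Figure D3:**
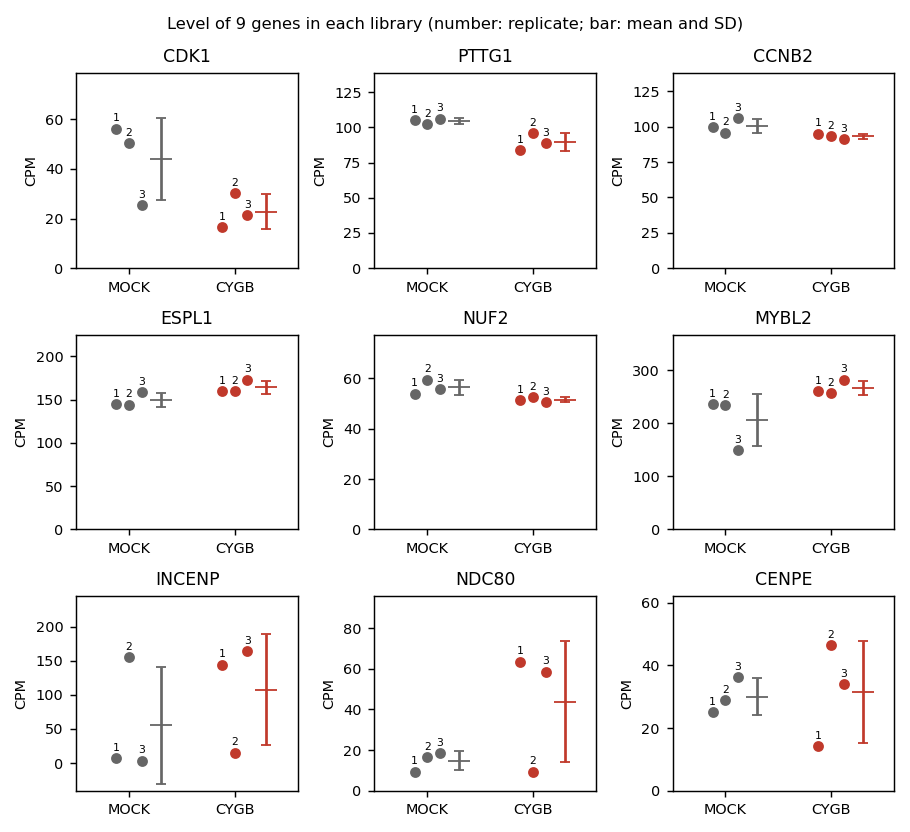
CPM of 9 genes in each library (points, numbered by replicate) with the mean and SD of each group of 3 beside them. PTTG1, CCNB2 and NUF2 sit slightly lower in CYGB and ESPL1 slightly higher, whereas INCENP, NDC80 and CENPE scatter within a group.

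The mitotic kinases AURKA and PLK1 and the spindle factor TPX2, which activates AURKA, summed to 588 ± 24.3 CPM in MOCK and 589 ± 27.3 in CYGB (SD, n = 3). TPX2 had 382, 396 and 411 CPM in MOCK and 408, 403 and 409 CPM in CYGB, a ratio of 1.03 (0.926 to 1.14). PLK1, which acts from centrosome maturation to cytokinesis, had a ratio of 0.964 (0.733 to 1.27). AURKA was less even, with 42.4 to 83.1 CPM in MOCK and 45.6 to 69.0 CPM in CYGB, and its ratio of 0.921 had a wider interval (0.570 to 1.49).

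The chromosomal passenger complex corrects faulty attachments of kinetochores and later acts at the midzone. Its kinase AURKB had 80.7, 72.2 and 76.3 CPM in MOCK and 73.6, 68.6 and 83.2 CPM in CYGB, and CDCA8, which encodes borealin, had a ratio of 1.02 (0.890 to 1.17). INCENP, the scaffold of the complex (ENSG00000149503, chromosome 11 from 62123973 to 62153163), had 6.91, 155 and 3.72 CPM in MOCK and 144, 15.3 and 164 CPM in CYGB.
It was high in 3 libraries, MOCK replicate 2 and CYGB replicates 1 and 3, and low in the other libraries of both groups. Its highest value was 44.0 times its lowest. The fitted ratio of 1.96 had a 95% interval from 0.152 to 25.1, and the log2 fold change moved from 0.97 to 4.34 without MOCK replicate 2 and to 0.41 without MOCK replicate 3. By transcript, ENST00000278849, the long coding transcript, was counted 227, 8045 and 131 times in MOCK and 7103, 94 and 8567 times in CYGB. In CYGB replicate 2, where that transcript was low, the coding transcript ENST00000394818 had 639 counts, against 0 to 77 elsewhere. The retained intron transcript ENST00000528037 had MOCK counts of 72, 65 and 37 and CYGB counts of 68, 47 and 37, so it did not follow the others. Whether the counts of transcripts without a gene include reads of INCENP, NDC80 or CDK1 was not tested.

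The 5 spindle checkpoint genes were even. Their sum was 879 ± 23.0 CPM in MOCK and 878 ± 30.1 in CYGB (SD, n = 3), and the 95% interval of each lay within 1.5-fold. BUB3, the most abundant of them per length, had 336, 308 and 322 CPM in MOCK and 317, 331 and 293 CPM in CYGB, and MAD2L1, the partner that captures CDC20, had a ratio of 1.00 (0.879 to 1.14). BUB1B (BUBR1) had a ratio of 1.09 (0.887 to 1.35), and TTK, the kinase that starts the checkpoint signal, 0.971 (0.803 to 1.18). BUB1 had the widest interval of this group, with a ratio of 0.996 (0.723 to 1.37).

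Downstream of the checkpoint, the sum of CDC20, UBE2C, PTTG1 and ESPL1 was 751 ± 16.4 CPM in MOCK and 751 ± 28.5 in CYGB (SD, n = 3). UBE2C, the ubiquitin-conjugating enzyme of APC/C, was the most abundant of all 42 genes per length, with 441 TPM over both groups. It had 199.8, 197 and 193 CPM in MOCK and 172, 180.5 and 198 CPM in CYGB. CDC20 had a ratio of 1.05 (0.913 to 1.20).
PTTG1, which encodes securin, the inhibitor of separase (ENSG00000164611, chromosome 5 from 160421822 to 160428744), had 105, 102 and 106 CPM in MOCK and 83.8, 96.3 and 89.0 CPM in CYGB. All CYGB libraries lay below all MOCK libraries. The ratio was 0.857 (0.746 to 0.985), with a log2 fold change of -0.22 (standard error 0.08, edgeR's quasi-likelihood test, unadjusted p = 0.0351, Benjamini-Hochberg adjusted p = 0.963). The adjusted p ranged from 0.713 to 1 over the alternative settings, and of the libraries left out in turn, only the omission of CYGB replicate 2 kept an unadjusted p under 0.05 (0.025). Its near copies PTTG2 and PTTG3P had at most 4 counts in a library.
ESPL1, separase itself (ENSG00000135476, chromosome 12 from 53268299 to 53293643), had 145, 144 and 159 CPM in MOCK and 160.4, 159.9 and 173 CPM in CYGB. The groups did not overlap in CPM, but the lowest CYGB value was close to the highest MOCK value, and the ratio was 1.10 (0.967 to 1.25). In TPM they overlapped, with CYGB replicate 1 at 54.6 TPM, below every MOCK library. In the fitted ratios, the genes of the inhibitor and of the protease it holds lay on opposite sides of the MOCK level, each by less than 1.5-fold. The interval of ESPL1 included a ratio of 1. This difference between them was not tested.

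The kinetochore and centromere genes (8 genes) summed to 682 ± 17.5 CPM in MOCK and 677 ± 25.0 in CYGB (SD, n = 3). CENPF, a large protein of the outer kinetochore, was the most abundant per length, with 421, 439 and 447 CPM in MOCK and 425, 419 and 415 CPM in CYGB. NDC80, NUF2, SPC24 and SPC25 encode the subunits of the NDC80 complex, which grips spindle fibres. NUF2 (ENSG00000143228, chromosome 1 from 163266576 to 163355764) had 54.0, 59.6 and 55.7 CPM in MOCK and 51.5, 52.5 and 50.6 CPM in CYGB. Every CYGB value in CPM was below every MOCK value, with a ratio of 0.914 (0.789 to 1.06). In TPM the groups overlapped. The gene RGS5 overlaps the annotated span of NUF2 on the opposite strand, with 119 to 320 counts in a library. An antisense entry also named RGS5 had 93 to 102 counts. Where transcripts overlap, their reads cannot be told apart if the counting did not use strand. However, the span of NUF2 starts at 163266576 through ENST00000534289, which had 0 counts in every library. The NUF2 transcripts with counts start at 163321890 or later, and whether RGS5 reaches them was not examined.
NDC80 (ENSG00000080986, chromosome 18 from 2571511 to 2616635) had 9.47, 16.5 and 18.4 CPM in MOCK and 63.6, 9.45 and 58.6 CPM in CYGB. CYGB replicates 1 and 3 were the high libraries, and CYGB replicate 2 was at the level of the lowest MOCK library. The ratio was 2.97 (0.921 to 9.55), with a log2 fold change of 1.57 (standard error 0.69, edgeR's quasi-likelihood test, unadjusted p = 0.0634, Benjamini-Hochberg adjusted p = 0.963, and 0.45 to 1 over the alternative settings). Without CYGB replicate 2 it was 2.05 (unadjusted p = 0.001, adjusted p = 0.45). The high counts lay in ENST00000261597, with 356, 721 and 806 counts in MOCK and 3079, 385 and 2944 in CYGB. The shorter coding transcript ENST00000576274 was counted 70, 135 and 107 times in MOCK and 104, 60 and 98 times in CYGB, in the same range in both groups.
Per length, the subunits were not at equal levels. SPC25 had 80.9 ± 4.10 TPM in MOCK and 78.4 ± 8.50 TPM in CYGB, NUF2 64.5 ± 2.29 and 62.0 ± 4.21 TPM, NDC80 16.9 ± 5.37 and 44.1 ± 27.0 TPM, and SPC24 10.7 ± 3.01 and 9.10 ± 1.498 TPM (SD, n = 3). SPC25 and NUF2 were above SPC24 in every library, and NDC80 lay near NUF2 in CYGB replicates 1 and 3.
CENPE, the kinesin that carries chromosomes to the plate (ENSG00000138778, chromosome 4 from 103105806 to 103198409, minus strand), was the least abundant per length, at 9.70 TPM over both groups. It had 25.0, 28.9 and 36.4 CPM in MOCK and 14.2, 46.5 and 34.0 CPM in CYGB, so that the lowest and the highest library were both CYGB. The ratio was 1.05 (0.515 to 2.14), and the sign of the change turned without MOCK replicate 1 and without CYGB replicate 2, at log2 fold changes of -0.045 and -0.31. CENPA, the centromeric histone, had a ratio of 0.768 (0.530 to 1.11), ZWINT 0.897 (0.694 to 1.16), SPC24 0.831 (0.542 to 1.27) and SPC25 0.946 (0.796 to 1.12).

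The 6 kinesins, motors of the spindle and midzone, summed to 611 ± 10.1 CPM in MOCK and 625 ± 10.3 in CYGB (SD, n = 3). KIF2C, which takes apart the ends of spindle fibres at kinetochores, led per length, with 195, 203 and 208 CPM in MOCK and 202, 201 and 224 CPM in CYGB. KIF11, the motor that separates the spindle poles and whose promoter is shown above, had a ratio of 0.993 (0.842 to 1.17). KIF4A had 0.999 (0.820 to 1.22), and its near copy KIF4B had at most 29 counts in a library. The ratios of KIF20A, KIF23 and KIF18A were 1.03, 0.948 and 1.15, and the interval of KIF18A (0.858 to 1.54) was the widest of the kinesins.

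The spindle, midzone and cytokinesis genes HMMR, PRC1, ECT2 and ANLN summed to 899 ± 41.0 CPM in MOCK and 882 ± 46.8 in CYGB (SD, n = 3), and the 95% interval of each lay within 1.5-fold. ANLN, the anillin scaffold of the contractile ring, had 429.9, 461 and 479 CPM in MOCK and 415, 488 and 438 CPM in CYGB. PRC1, which bundles midzone fibres, had a ratio of 1.02 (0.860 to 1.21). TOP2A, the topoisomerase that untangles sister chromatids, had 401, 426 and 441 CPM in MOCK and 402, 429.9 and 379.7 CPM in CYGB, a ratio of 0.956 (0.841 to 1.09).

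FOXM1 and MYBL2 (B-MYB) are the transcription factors that turn on the late cell cycle genes. MYBL2 (ENSG00000101057, chromosome 20 from 43667019 to 43716496) had 236, 234 and 149.7 CPM in MOCK and 261, 258 and 283 CPM in CYGB. All CYGB libraries were above all MOCK libraries, and MOCK replicate 3 lay below the other libraries of its group. The ratio was 1.29 (0.949 to 1.76), with a log2 fold change of 0.37 (standard error 0.18, edgeR's quasi-likelihood test, Benjamini-Hochberg adjusted p = 0.963, and 0.784 to 1 over the alternative settings). Without MOCK replicate 3 it was 0.18.
FOXM1 ranged from 19.0 to 34.7 CPM in MOCK and from 28.9 to 30.8 CPM in CYGB, inside the MOCK range, and its ratio was 1.22 (0.801 to 1.86). Both factors lay above the MOCK level in the fit, and neither passed a limit.

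The division of counts among transcripts varied more than the summed level. The table lists 309 transcripts of the 42 genes, of which 224 were tested. None of them passed the limit of the methods with edgeR (0 of 224), beside 1.02% of the 66609 transcripts tested in all, and 4 passed with DESeq2. With edgeR, 4 passed without CYGB replicate 2, 3 without MOCK replicate 2 or MOCK replicate 3, 2 without CYGB replicate 3 and 1 without CYGB replicate 1. An unadjusted p under 0.05 was reached by 11, 4 in the direction of higher and 7 of lower CYGB values, beside 3.78% of all transcripts, and an adjusted p under 0.05 by 0. The DESeq2 calls were ENST00000373809 of CDK1, ENST00000578753 of AURKB, ENST00000395915 of AURKA and ENST00000415130 of CDC25C.
For 32 of the 42 genes, tested transcripts lay on both sides of the MOCK level. The median within-group SD was 0.176 on the log2 scale for the most abundant transcript and 0.111 for the summed gene. In 34 genes the same transcript was the most abundant in all libraries.
CDK1 was among the other 8. Its retained intron transcript ENST00000475504 had MOCK counts of 805, 898 and 584 and CYGB counts of 561, 735 and 547, a log2 fold change of -0.31. Its coding transcript ENST00000448257 was counted 1118, 703 and 245 times in MOCK and 149, 268 and 228 times in CYGB, at -1.70 (edgeR's quasi-likelihood test, unadjusted p = 0.0347, adjusted p = 1). The coding transcript ENST00000373809 had MOCK counts of 219, 174 and 29 and CYGB counts of 24, 28 and 29, at -2.39 (unadjusted p = 0.0224, adjusted p = 1 by the same test). The lower CDK1 values of CYGB libraries, and that of MOCK replicate 3, were thus found mainly in coding transcripts, and the share of the retained intron transcript went from 30.3% in MOCK replicate 1 to 66.8% in CYGB replicate 1.
MYBL2 was divided between 2 coding transcripts. ENST00000217026 was counted 5606, 12152 and 5075 times in MOCK and 13112, 11268 and 14254 times in CYGB, while ENST00000396863 had MOCK counts of 5551, 252 and 2646 and CYGB counts of 96, 1849 and 616. MOCK replicates 1 and 2 thus had nearly the same gene level with different divisions. Likewise ENST00000271452 held from 39.5 to 92.1% of the NUF2 counts, although the summed NUF2 level was even.
In BUB1, ENST00000535254 was counted 141, 705 and 654 times in MOCK and 1922, 750 and 1956 times in CYGB, and ENST00000302759 had MOCK counts of 3580, 2655 and 2872 and CYGB counts of 1378, 2623 and 1534. The libraries in which the first was highest, CYGB replicates 1 and 3, were those in which the other was lowest. BUB1 was chosen for this after its values were seen. How reads were assigned to isoforms is not given in the sources used here, and its part in these divisions was not tested.

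**Figure D4:**
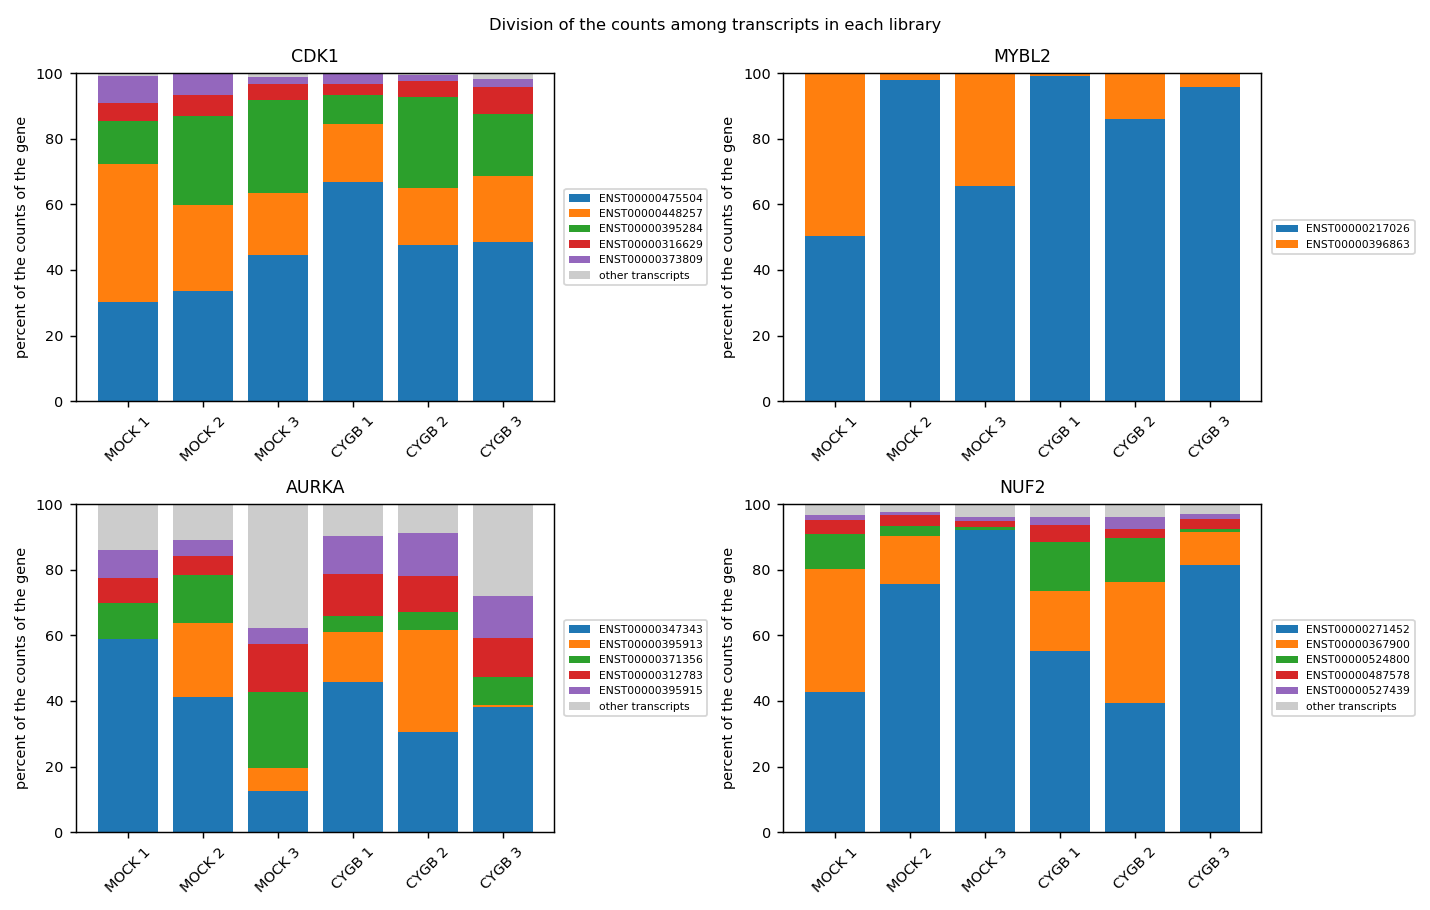
Share of the counts of CDK1, MYBL2, AURKA and NUF2 held by each of their main transcripts in every library, as stacked bars in percent. The shares differ between libraries of the same group, as in MYBL2, where the lower bar runs from 50.2% in MOCK replicate 1 to 99.3% in CYGB replicate 1.

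The wider mitotic machinery was followed with a list of 120 further genes, all of them tested. It covers the other subunits of APC/C, the checkpoint, the inner kinetochore, cohesin and condensin, entry kinases, motors, cytokinesis and the DREAM and E2F factors. In CYGB, 68 lay above and 52 below the MOCK level, with a median log2 fold change of 0.0269. By edgeR, 11 had an unadjusted p under 0.05 (5 higher, 6 lower), beside 4.54% of all genes. The limit of the methods was passed by 1, beside 0.565% of all genes, and an adjusted p under 0.05 was reached by 0. The groups did not overlap for 17, with 9 higher in CYGB (5.72% of all genes in that direction) and 8 lower (5.31%). The number past that limit was 3 with DESeq2 and without MOCK replicate 2, and 2 without CYGB replicate 1 or CYGB replicate 2, and the number with an unadjusted p under 0.05 was 7 without CYGB replicate 2.
The gene past the limit was RBL2 (p130), the pocket protein of DREAM, which holds late cell cycle genes off in resting cells. It had 6.02, 5.54 and 6.24 CPM in MOCK and 13.9, 26.0 and 18.2 CPM in CYGB, with the groups well apart. The log2 fold change was 1.71 (standard error 0.25, edgeR's quasi-likelihood test, unadjusted p = 0.000467, Benjamini-Hochberg adjusted p = 0.389). Over the alternatives it stayed between 1.44 and 1.90, with an adjusted p of 1.4e-06 with DESeq2 and 0.156 to 0.917 otherwise.
TFDP1, the partner of E2F factors, had 18.7, 7.08 and 31.9 CPM in MOCK and 176, 39.0 and 166 CPM in CYGB, a log2 fold change of 2.72 (adjusted p = 0.963 with edgeR and 0.021 with DESeq2). CYGB replicates 1 and 3 were far above CYGB replicate 2, the same libraries in which NDC80 and INCENP were high within CYGB. SPDL1 (Spindly, which brings dynein to kinetochores) had 10.5, 11.8 and 11.3 CPM in MOCK and 16.5, 19.9 and 27.7 CPM in CYGB, at 0.93 (adjusted p = 0.963 with edgeR and 0.0327 with DESeq2).
WEE1, the kinase that holds CDK1 inactive, had 111, 63.9 and 76.8 CPM in MOCK and 45.7, 49.8 and 55.4 CPM in CYGB, at -0.74. ANAPC1, the scaffold of APC/C, had 41.9, 24.4 and 35.1 CPM in MOCK and 17.9, 22.0 and 20.2 CPM in CYGB, at -0.76. STAG1, a cohesin subunit, had 14.5, 10.3 and 53.5 CPM in MOCK and 6.64, 6.82 and 6.59 CPM in CYGB, at -1.96, a value to which MOCK replicate 3 contributed most, since it was -0.89 without that library. None of WEE1, ANAPC1 and STAG1 reached an adjusted p under 0.05 by edgeR, whose value was 0.963 for each. The 6 genes were named for the smallest p-values of the list. Their groups did not overlap, which is no separate support, since the p-values came from the same libraries.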

How the data were processed

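RNA of 3 MOCK and 3 CYGB lentivirus HCT116 cultures was sequenced in paired-end mode. The file the authors deposited gives unnormalized counts of reads for each transcript. The submitters' processing notes name HISAT2, HISAT, DESeq2 and the build hg19, while 99.6% of the 151393 transcripts found in GENCODE 29 have the same position there, so positions are those of GRCh38. The counting tool, its use of strand and its division of reads among isoforms are not given in the sources used here. If reads were shared among isoforms by estimate, transcript values carry more error than gene sums.

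Of 172678 transcripts, 21225 have no gene. These took 18.6 to 19.5% of each library and entered neither the library sizes nor the tests. Counts were summed per gene, filtered with filterByExpr (minimum count 10), scaled by TMM and compared by edgeR 4.0.16 (glmQLFit, glmQLFTest) in R 4.3.3, CYGB against MOCK, on 19987 genes and again on 66609 transcripts. The Benjamini-Hochberg adjustment ran over all features tested. Intervals are the log2 fold change with its standard error times the t quantile, and cover the spread between these libraries. Genes had a common biological coefficient of variation of 36.6%, and transcripts 78.9%. Each library was counted as 1 replicate. Any pair of libraries differed by more than sampling noise (chi-square per gene at least 101.4), which does not show that the cultures were independent. TPM used GENCODE 29 transcript lengths. Promoter windows came from RefSeq (GRCh38.p14) by symbol. The steps were tested on simulated data.

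The 42 genes and all lists were chosen with earlier results of these data known. Values per library are given for genes past the limit of the methods or with an unadjusted p under 0.05, genes whose groups do not overlap, the most abundant gene of each role per length, genes with a library more than 2-fold from the mean of the others of its group, and, of the 120 further genes, the 6 with the smallest p-values. All 5 genes of a list of genes that slow the cell cycle, or were grouped with such genes, are given in the closing section. Alternatives were DESeq2 1.42.0 and its size factors, fits with no filter on expression or one at a mean of 50 counts, the transcripts without a gene included, the replicate number as a block, the most abundant transcript per gene, and each library left out in turn.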

Additional observations from a re-analysis of the deposited data

How the results depend on the processing

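The numbers of calls were small and moved with the setting. The count of the 42 genes past the limit of the methods was 0 in every alternative other than leaving out 1 library, and ranged from 0 to 1 there (CDK1 without MOCK replicate 3, NDC80 without CYGB replicate 2). Genes with an unadjusted p under 0.05 numbered 1 with the transcripts without a gene included, 0 with the most abundant transcript and 0 to 4 with a library left out. Those whose groups do not overlap numbered 1 with the most abundant transcript and 7 to 11 with a library left out, where fewer libraries have to be apart. Transcripts of these genes past the limit, 0 by edgeR, numbered 4 with DESeq2, 1 with no expression filter and 1 with a mean of at least 50 counts (ENST00000561077 of CCNB2 in both), and 0 to 4 with a library left out. Of the 120 further genes, 3 passed with DESeq2, 2 with no expression filter, 3 with the most abundant transcript and 1 to 3 with a library left out, and 7 to 11 had an unadjusted p under 0.05 with a library left out. The cause of these shifts was not tested. The log2 fold change of CENPE ranged from -0.31 to 0.42 and that of GADD45A from -0.0205 to 0.0871 with a library left out. The number of the 42 genes with a 95% interval within 2-fold was 32 with the most abundant transcript, 35 to 38 with a library left out and 37 to 39 otherwise, and that with an adjusted p under 0.05 was 0 in all 13 alternatives.

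With the replicate number as a block, 0 of the 42 genes had an unadjusted p under 0.05, 2 of the 120 further genes passed the limit, 6 of these had an unadjusted p under 0.05, and CENPE changed sign to -0.0748. The numbers are not a pairing in the labels, and deviations of same-numbered libraries from their group means correlated at 0.0294, 0.00521 and 0.0310 across genes. With 3 libraries per group, a change confined to 1 or 2 libraries of a group, as in NDC80, could not be told from a change of the group. INCENP was high in libraries of both groups and low in others of both.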

Other observations

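Genes that slow the cell cycle, and others listed with them, were read beside the mitosis genes. CDKN1A, the CDK inhibitor p21, was counted 11881, 29932 and 11904 times in MOCK and 25650, 29476 and 34453 times in CYGB. MOCK replicate 2 lay within the CYGB range, and the other MOCK libraries lay below it. The log2 fold change was 0.73 (edgeR's quasi-likelihood test, Benjamini-Hochberg adjusted p = 0.963) and 1.27 without MOCK replicate 2 (unadjusted p = 0.000204, past the limit of the methods, adjusted p = 0.179). CDKN1B, the inhibitor p27, had MOCK counts of 3451, 2147 and 1828 and CYGB counts of 1882, 1852 and 1706, at -0.49, and at -0.10 without MOCK replicate 1. GADD45A, a growth arrest and DNA damage gene, was counted 5031, 5702 and 5118 times in MOCK and 4834, 5659 and 5783 times in CYGB.

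MDM2, a ubiquitin ligase, and CCNG1, cyclin G1, were listed with these genes and are not CDK inhibitors. Each had 1 library far from the others. MDM2 had 15015 counts in MOCK replicate 1 and 969 to 1211 in the other libraries, so that its log2 fold change of -2.51 became -0.005 without that library. CCNG1 had MOCK counts of 1776, 1269 and 1367 and CYGB counts of 7415, 2297 and 1506, at 1.32, and at 0.33 without CYGB replicate 1. In edgeR and in DESeq2, which gave no p for MDM2, 0 of these 5 genes came to an adjusted p under 0.05.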
